A study of Saccharomyces cerevisiae with 6 samples.

Results

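The PIR family of Saccharomyces cerevisiae comprises 5 genes, PIR1 (YKL164C), HSP150 (YJL159W, also called PIR2), PIR3 (YKL163W), CIS3 (YJL158C, also called PIR4) and PIR5 (YJL160C), taken by identifier from a table of 6603 open reading frames. The data were 3 libraries of RNA that had assembled in a test tube and been pelleted by centrifugation, and 3 libraries of total RNA. All 6 were made from log-phase yeast of strain BY4741 (MATa, with deletions in HIS3, LEU2, MET17 and URA3), extracted with phenol and chloroform and depleted of ribosomal RNA. For the assemblies, yeast RNA at 150 µg/mL was placed in 150 mM NaCl with 10% polyethylene glycol and 1 mM MgCl2, and no protein is named in the mixture. The labels give this buffer for the total RNA samples too, and do not say whether these had also been in it before sequencing. The question was which mRNAs are over- or under-represented in such assemblies. The family was chosen by the fold change of assemblies against total RNA, in which PIR1 stood near the top, so the assembly values of the members are given as a description and no test of them is offered.

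PIR proteins, named for their internal repeats, are secreted mannoproteins of the yeast cell wall. They carry many O-linked mannose chains, are trimmed by the Kex2 protease in the Golgi, and are tied to β-1,3-glucan through glutamines of the repeat, a linkage that mild alkali breaks. Each has a signal peptide, a repeat region near the amino end and a cysteine-rich carboxyl end. In growing cultures several of the genes are transcribed around the end of mitosis and under the cell wall integrity pathway, and HSP150 also responds to heat.

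The repeats can be read in the coding sequences, and the following stretches are shown because members with many repeats and members with few had fold changes of opposite sign. Each line runs 5′ to 3′ in the coding direction. The 24 bases in capitals are the 8 codons of the Pir repeat core, which encode glutamine, any pair of residues, aspartate, glycine, glutamine, any residue and glutamine, with 15 bases on each side in lower case. The motif was searched in frame on the coding strand.
PIR1 repeat 1: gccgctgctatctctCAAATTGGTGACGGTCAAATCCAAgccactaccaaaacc
PIR1 repeat 7: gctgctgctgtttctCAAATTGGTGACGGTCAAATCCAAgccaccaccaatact
PIR1 repeat 8: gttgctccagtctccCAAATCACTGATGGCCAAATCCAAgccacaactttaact
HSP150 repeat 6: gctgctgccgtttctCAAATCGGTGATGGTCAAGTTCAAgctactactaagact
HSP150 repeat 8: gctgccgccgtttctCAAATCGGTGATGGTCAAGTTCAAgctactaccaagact
PIR3 repeat 3: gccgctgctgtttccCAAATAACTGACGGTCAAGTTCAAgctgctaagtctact
PIR3 repeat 4: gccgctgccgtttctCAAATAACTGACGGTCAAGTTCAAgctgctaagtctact
CIS3 repeat 1: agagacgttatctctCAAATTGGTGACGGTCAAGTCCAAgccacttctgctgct
PIR5 repeat 1: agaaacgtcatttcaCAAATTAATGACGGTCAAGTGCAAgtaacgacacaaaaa
PIR5 repeat 3: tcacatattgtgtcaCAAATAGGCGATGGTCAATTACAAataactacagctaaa

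These sequences come from the RefSeq genome of build R64, which is that of S288C, the parent strain of BY4741. PIR1 lies on chromosome XI at 141794 to 142819 on the minus strand, and its repeat 1 stretch at 142577 to 142630. PIR3 lies next to it, on the plus strand at 144401 to 145378. The other members neighbour each other on chromosome X, PIR5 at 117962 to 118825 on the minus strand, HSP150 at 120449 to 121690 on the plus strand and CIS3 at 122265 to 122948 on the minus strand. All coordinates are those of the coding sequence, which is a single exon in each gene.

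HSP150 held 11 repeat cores, PIR1 and PIR3 held 8 each, PIR5 held 4 and CIS3 held 1. PIR1 had the most uniform repeats, with on average 1.68 of 24 bases differing between any 2 of its cores, and cores 1, 2, 5, 6 and 7 were identical. The corresponding mean was 3.09 in HSP150, 5.07 in PIR3 and 6.0 in PIR5. The single core of CIS3 differed at 1 base from core 1 of PIR1. Repetition at the nucleotide level, measured as the share of 12-base words that occur more than once in the same coding sequence, was 32.5% in HSP150, 28.8% in PIR1 and 17.0% in PIR3, against 0.703% in PIR5 and 0% in CIS3. By this share HSP150 ranked 12th, PIR1 15th and PIR3 27th from the top of 5894 nuclear protein-coding genes, so the members divide into 3 that are highly repetitive as RNA and 2 that are not. Most repeats are short: of windows of 50 bases, 72 of 1193 in HSP150, 40 of 929 in PIR3 and 10 of 977 in PIR1 recur within the same gene, and 0 in CIS3 and PIR5.

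**Figure D1:**
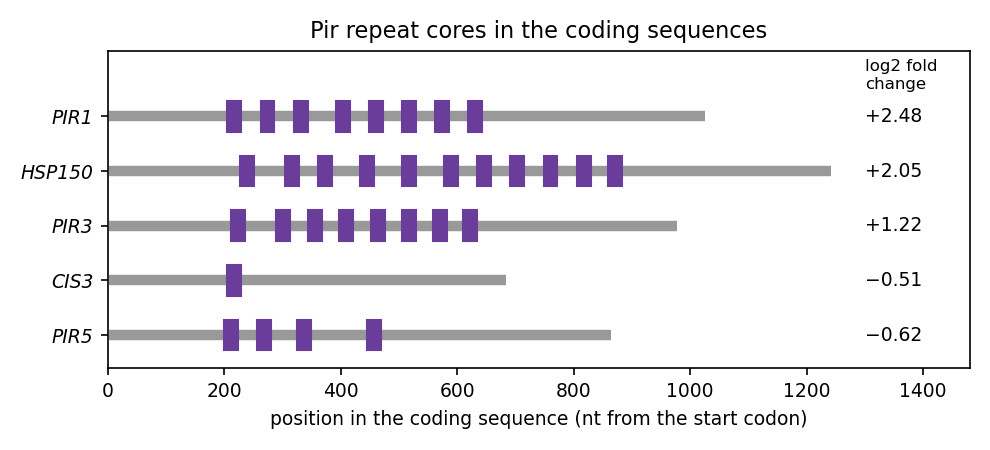
Map of the coding sequences of the 5 PIR family genes (grey bars, position in nt from the start codon on the horizontal axis) with the Pir repeat cores as purple boxes and the log2 fold change of assemblies against total RNA at the right. HSP150, PIR1 and PIR3 carry 11, 8 and 8 cores and have positive values, whereas PIR5 with 4 and CIS3 with 1 have negative ones. PIR5 was not called, and with length and GC content fitted out neither PIR5 (-0.14) nor CIS3 (-0.11) was called.

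The core was found in 10 of 5915 coding sequences searched, those of the 5 members and of 5 other genes with 1 core each, TIR1, TIR2, CWP1, CWP2 and ANS1. TIR1, TIR2, CWP1 and CWP2 encode wall mannoproteins that are made with a glycosylphosphatidylinositol (GPI) anchor. These 5 were named because of their sequence, after the values had been seen. In the limma test over all genes TIR1 rose from 202.1 ± 12.3 normalised reads in total RNA to 521.1 ± 29.1 in assemblies (log2 fold change 1.36, adjusted p = 9e-07), TIR2 rose from 39.3 ± 9.64 to 96.5 ± 15.5 (1.29, adjusted p = 0.000172), and CWP1 rose from 1542 ± 52.8 to 3181 ± 42.4 (1.05, adjusted p = 4.07e-06; SD, n = 3 libraries each). CWP2, an abundant mRNA of 279 coding bases, had 19595 ± 2980 in assemblies and 16458 ± 2476 in total RNA and was not called (0.25, adjusted p = 0.164). ANS1 was below the level tested, at 1.90 ± 0.922 in total RNA and 0.393 ± 0.681 in assemblies. Single-core genes thus included 3 called higher, as 41.3% of all genes tested were, 1 not called, and ANS1, too low to be tested. CIS3 (-0.51, given as a description) had fewer reads in assemblies, as ANS1 did.

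Levels are read counts per open reading frame divided by a size factor for each library, which sets the median gene to no change. Reads per library numbered 8749240 to 10531980. Whether the libraries within a group stem from different cultures or assembly reactions is not stated, so the p-values rest on a spread between libraries that may be technical only. Libraries 1 and 2 of total RNA resembled each other more closely than any other pair within a group (chi-square of their reads per degree of freedom 1.57, with 12.1 to 59.8 in the rest). With them averaged into 1 sample, the log2 fold changes of PIR1, HSP150, PIR3, CIS3 and PIR5 were 2.48, 2.06, 1.12, -0.55 and -0.68. LEU2 and MET17 were at 0 and URA3 at no more than 0.862 normalised reads, HIS3, of which the strain lacks an internal part, kept 158.6 to 293.3. Of the mating-type genes, STE2 of MATa cells stood at 3381 to 4986 and STE3 of MATα cells at 4.87 to 35.0. Of 5670 genes tested with limma, 2342 were higher and 2316 lower in assemblies at an adjusted p of 0.05. With equal library totals the split was 1584 higher and 3045 lower, or 34.2% of calls higher against 50.3%, which shifted the median gene by -0.56 (log2), so every direction here is relative to the median gene.

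The PIR mRNAs did not behave alike. PIR1, HSP150 and PIR3 stood higher in assemblies than in total RNA, by 5.59, 4.13 and 2.33-fold, whereas CIS3 and PIR5 stood lower, at 0.704 and 0.649 of their level in total RNA (fold values on the log2(value + 1) scale). The authors' deposited table lists fold changes of 5.66, 4.15, 2.32, 0.703 and 0.640 for PIR1, HSP150, PIR3, CIS3 and PIR5, as ratios of group means. Of the 5 members, 3 passed the threshold as higher, where 41.3% of all genes did, and 1, CIS3, as lower, where 40.8% did, so that 4 were called in either direction against 82.2% of all genes. The values of the assemblies lay wholly above those of total RNA in PIR1, HSP150 and PIR3 (42.7% of all genes) and wholly below in CIS3 (42.6% of all genes), which makes 4 without overlap against 85.3% of all genes. Since members were chosen with this comparison known, nothing is read from these shares.

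PIR1, a wall protein needed for cell wall stability, had 13464, 17777 and 19526 normalised reads in assemblies 1, 2 and 3, whereas total RNA libraries 1, 2 and 3 had 3084, 2905 and 2979. Every assembly library was more than 4 times the highest total RNA library, and the spread between assemblies (16922 ± 3120, SD, n = 3) exceeded that between total RNA libraries (2989 ± 90.1). Its log2 fold change of 2.48 (SE 0.15) was the 5th highest of 5670 genes.

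HSP150, which had the most reads of the 5 in both groups and is the only one named for heat shock, stood at 30826, 37639 and 35923 normalised reads in assemblies and 8813, 8226 and 8142 in total RNA. The groups were far apart, at 34796 ± 3544 and 8394 ± 366 (SD, n = 3 each), and the lowest assembly value was in library 1, as for PIR1. The log2 fold change was 2.05 (SE 0.14), 145th from the top.

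PIR3, the paralog of HSP150 from the whole-genome duplication, was weakly expressed, with 127.9, 127.1 and 175.6 normalised reads in assemblies and 60.4, 45.7 and 79.3 in total RNA. Every assembly value was higher than every total RNA value, but the groups lay closer together relative to their spread than in PIR1 or HSP150 (144 ± 27.8 and 61.8 ± 16.8, SD, n = 3 each). The log2 fold change was 1.22 (SE 0.22), 1195th from the top. PIR3 and PIR1 share an exact stretch of 81 bases, and 60 of the 929 windows of 50 bases in PIR3 occur elsewhere in the genome. PIR1 was so much more abundant that reads from it could weigh on the PIR3 value, and the sources used here do not give how such reads were assigned.

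CIS3, a mannose-containing wall glycoprotein with a single repeat core, moved the other way. It had 3529, 3620 and 3206 normalised reads in assemblies and 4703, 4559 and 5474 in total RNA. All assembly libraries lay below all total RNA libraries (3452 ± 218 and 4912 ± 492, SD, n = 3 each), with a log2 fold change of -0.51 (SE 0.13). A correction that fits coding length and GC content out of each library brought it to -0.11, which was not called. HSP150 and CIS3 share an exact stretch of 65 bases, and 16 of 635 windows of 50 bases in CIS3 occur elsewhere in the genome.

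PIR5, the paralog of PIR1 and a gene required for sporulation, was barely expressed in these log-phase cells. Its values rested on 6, 6 and 11 reads in assemblies and 15, 18 and 19 reads in total RNA, or 7.31, 7.26 and 13.0 against 11.3, 15.5 and 16.2 normalised reads. The groups overlapped, since assembly library 3 exceeded total RNA library 1, and the log2 fold change of -0.62 (SE 0.36) did not pass the threshold. With equal library totals it was -1.14, and without assembly library 3 it was -0.87, both called lower. None of its windows of 50 bases occurs elsewhere in the genome.

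**Figure D2:**
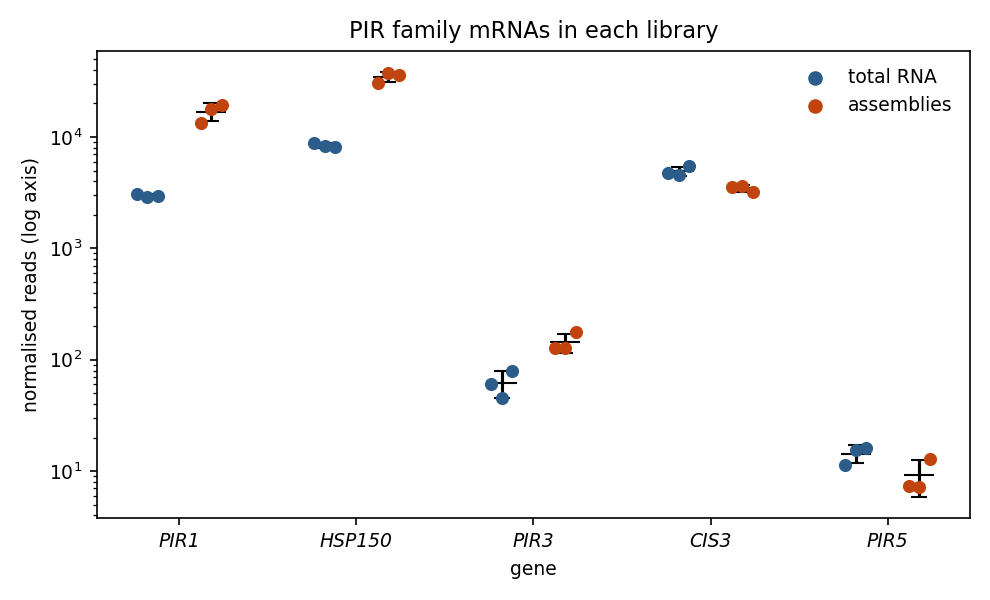
Normalised reads (log axis) of the 5 PIR family mRNAs in the 3 total RNA libraries (blue points) and the 3 assembly libraries (orange points), with bars for mean and SD. The orange points lie above the blue ones for PIR1, HSP150 and PIR3, below them for CIS3, and overlap them for PIR5.

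Levels were compared between genes after division by coding length. Windows of 36 bases that recur within the gene made up 11.4% in HSP150, 10.9% in PIR1 and 8.91% in PIR3, and 0% in CIS3 and PIR5. How reads with several matches were counted is not given, so the order of the members carries that limit. In total RNA, CIS3 (7181 ± 719 normalised reads per kilobase, SD, n = 3) and HSP150 (6758 ± 295) were the highest and their libraries overlapped, so their order is not resolved. PIR1 followed at 2913 ± 87.8, PIR3 at 63.2 ± 17.2 and PIR5 at 16.6 ± 3.05, each below the preceding one in every library. In assemblies the order became HSP150 (28016 ± 2853 normalised reads per kilobase), PIR1 (16493 ± 3041), CIS3 (5047 ± 318), PIR3 (147 ± 28.4) and PIR5 (10.6 ± 3.80), with no overlap between neighbours. Among 5894 nuclear protein-coding genes ranked by level per kilobase, HSP150 went from 219th in total RNA to 29th in assemblies and PIR1 from 387th to 52nd, while CIS3 went from 215th to 258th.

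The ratio of reads of 2 members within a library does not depend on how libraries are scaled. It is not divided by coding length, so only its change between groups can be read, not which mRNA is the more abundant. The PIR1 to CIS3 ratio was 3.82, 4.91 and 6.09 in the assemblies but 0.656, 0.637 and 0.544 in total RNA. The HSP150 to CIS3 ratio of reads was 8.73, 10.4 and 11.2 in assemblies and 1.87, 1.80 and 1.49 in total RNA. The PIR1 to HSP150 ratio moved less, from 0.356 ± 0.00841 in total RNA to 0.484 ± 0.0544 in assemblies (SD, n = 3 each), without overlap between the groups. The PIR1 to PIR3 ratio was 105.3, 139.9 and 111.2 in assemblies and 51.0, 63.6 and 37.6 in total RNA. On the log2 scale the differences between groups were 2.99 for PIR1 to CIS3, 2.55 for HSP150 to CIS3, 1.74 for PIR3 to CIS3, 1.25 for PIR1 to PIR3 and 0.44 for PIR1 to HSP150.

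**Figure D3:**
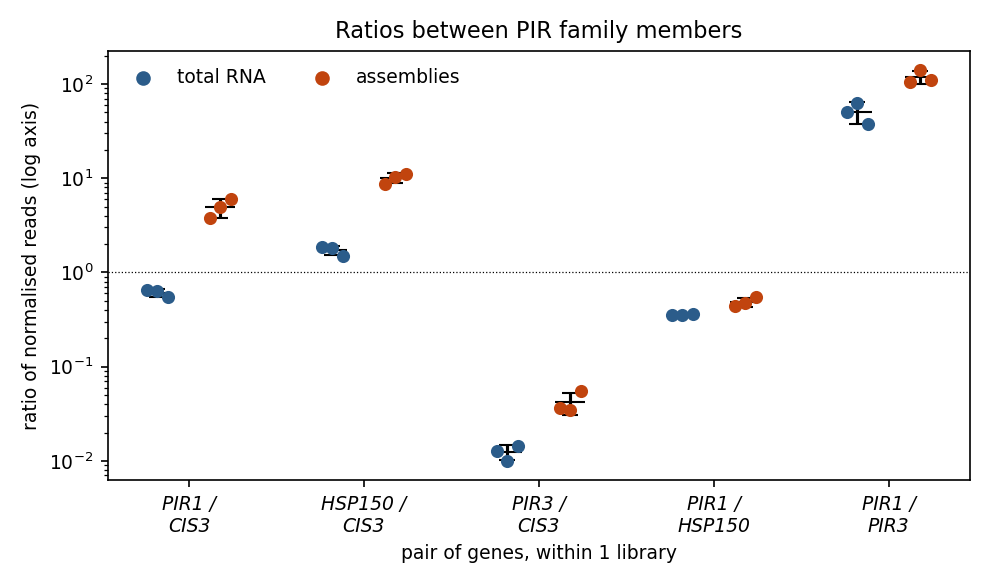
Ratio of normalised reads (log axis) between pairs of PIR family members within each library, for total RNA (blue) and assemblies (orange), with bars for mean and SD over 3 libraries. All 5 ratios are higher in assemblies without overlap, and the PIR1 to CIS3 ratio goes from between 0.544 and 0.656 in total RNA to between 3.82 and 6.09 in assemblies.

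The 5 mRNAs together took 0.450%, 0.484% and 0.474% of the normalised reads in the assemblies, compared with 0.215%, 0.204% and 0.201% in total RNA. Within the family, PIR1 and HSP150 made up 93.4% ± 0.959 in assemblies and 69.6% ± 2.56 in total RNA, and CIS3 made up 6.31% ± 0.970 and 30.0% ± 2.47 (SD, n = 3 each).

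Longer coding sequences generally stood higher in these assemblies, and the PIR genes are of modest length, from 684 nt in CIS3 to 1242 nt in HSP150. Among 2148 nuclear genes of 1000 to below 2000 nt, whose median log2 fold change was 0.09 and whose 95th percentile was 1.70, none exceeded PIR1 (1026 nt) and 29 exceeded HSP150. Among 1390 genes of 500 to below 1000 nt (median -0.94, 95th percentile 1.18), 66 exceeded PIR3 (978 nt), 473 exceeded CIS3 and 519 exceeded PIR5 (864 nt). CIS3 and PIR5, though lower than the median gene, were thus above the median of genes of their own length range. Under the length and GC correction the log2 fold changes were 2.50 for PIR1, 1.47 for HSP150, 1.26 for PIR3, -0.11 for CIS3 and -0.14 for PIR5.

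**Figure D4:**
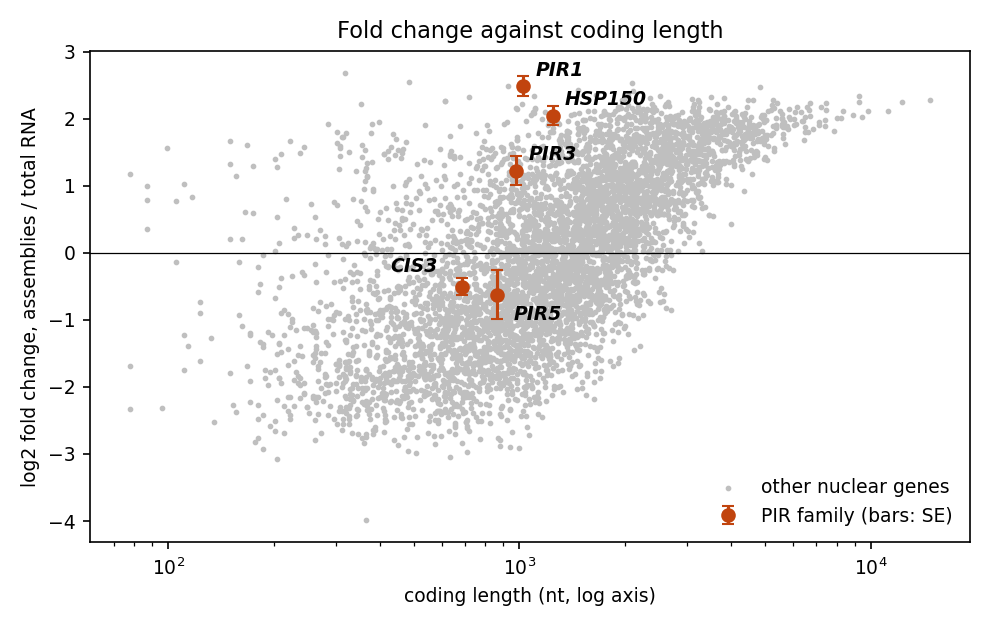
Log2 fold change of assemblies against total RNA over coding length (log axis) for nuclear genes (grey) and the 5 PIR family members (orange, bars are SE from limma). PIR1 and HSP150 sit at the upper edge of genes of their length. PIR3 (1.22) is near the 95th percentile (1.18) of genes of 500 to below 1000 nt, at the long end of that range. DSE2, of the same coding length, is higher (2.16). CIS3 and PIR5 sit within the grey cloud.

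The genes directly beside the 2 PIR clusters did not share the values of PIR1 and HSP150. On chromosome XI, MCD4, an enzyme that adds ethanolamine phosphate to GPI anchors, rose (log2 fold change 0.75, limma adjusted p = 0.00262), from 980.7 ± 72.2 to 1704 ± 544 normalised reads, and the uncharacterised YKL162C fell (-1.02, adjusted p = 0.000825), from 59.8 ± 4.52 to 29.3 ± 5.88. On chromosome X, FMP33 had 24.5 ± 3.24 in total RNA and 22.9 ± 6.70 in assemblies and was not called (-0.12, adjusted p = 0.699). FAR1, the inhibitor of the cyclin-dependent kinase in mating, was called higher (0.75, adjusted p = 0.0217; SD, n = 3 each throughout), but assembly library 3, at 5092 against 2194 and 2539, carried that call, which was lost without it (0.38, adjusted p = 0.0532) and without total RNA library 2 (0.66, adjusted p = 0.0535). The values of MCD4 and FAR1 turned negative under the length and GC correction (-0.27 and -0.42), and FMP33 turned positive (1.01). With equal library totals MCD4 and FAR1 were not called (0.19 and 0.18).

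The genes whose profile over the 6 libraries lay nearest to that of PIR1, by Euclidean distance between centred log2(value + 1) values among 4705 genes with a mean of at least 100, were IRA1 (distance 0.216), PTR3 (0.235), UTH1 (0.249), PEX6 (0.258) and FLO10 (0.262). IRA1 encodes a GTPase-activating protein of Ras, PTR3 a part of the amino acid sensor, UTH1 a SUN family wall protein, PEX6 an ATPase of peroxisome assembly and FLO10 a flocculin. Their coding sequences ran from 1098 nt in UTH1 to 9279 nt in IRA1, so that UTH1 was the one of a length like that of PIR1. HSP150 ranked 123rd by this distance (0.583), PIR3 1152nd and CIS3 3087th.

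Other genes of the cell wall were counted in lists, with calls from the limma fit over all genes and a median of 0.02 for the log2 fold change of all genes tested. In that fit 41.3% of all genes were higher and 40.8% lower. Under the length and GC correction 1810 of 5502 genes were higher and 1979 lower. Of 5670 genes, 1584 were higher and 3045 lower with equal library totals, and 2406 and 2103 with quantile normalisation. Of 23 GPI-anchored wall mannoproteins tested, the other large class of covalently bound wall protein, 19 were higher and 1 was lower, and the median was 1.91. The mating adhesin FIG2 (log2 fold change 2.47, limma adjusted p = 3.17e-07), the mannoprotein TIR4 (2.42, adjusted p = 3.76e-07) and FLO10 (2.32, adjusted p = 3.17e-07) led. The lower one was CCW12, a short and very abundant wall mRNA of 402 nt, which fell from 38333 ± 3219 to 21296 ± 1956 normalised reads (SD, n = 3 each; -0.85, adjusted p = 0.000146), and with equal library totals or quantile normalisation 2 were lower. FIG2 and FLO10 lost their calls under the length and GC correction (0.36 and 0.32). The list then had 13 higher and 1 lower, with a median of 0.59.

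All 4 genes of the SUN family of wall proteins were higher, with a median of 1.69, led by UTH1 (2.35), SIM1 (2.07) and SUN4 (1.31; limma adjusted p from 3.17e-07 to 1.26e-06). The 4 stayed higher under the length and GC correction, with a median of 1.23, and 3 were higher with equal library totals. Of 18 enzymes that cut or join glucan and chitin, 13 rose and 0 fell in limma, and the median was 1.32. At an unadjusted p of 0.05 limma and DESeq2 had 0 lower and edgeR 1, and at an adjusted p edgeR and DESeq2 on the recovered reads called 0. The count of 0 was not kept by every alternative: 3 were lower with equal library totals, 2 with quantile normalisation, and 1 with TMM, with no filter, under the length and GC correction or without any one assembly library. The length and GC correction left 11 higher, with a median of 0.91. SCW11, a glucanase-like protein of daughter cells, rose by 2.11 on the log2 scale, UTR2, which links chitin to glucan, by 2.05 and GAS5, a glucan elongase, by 1.94 (limma adjusted p from 3.17e-07 to 7.87e-07).

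Of 19 genes for the synthesis of glucan and chitin, 15 rose and 4 fell, and the median was 0.97. The glucan synthase subunits FKS3 (2.01), FKS1 (1.76) and GSC2 (1.63) led, and under the length and GC correction FKS1 and GSC2 turned to -0.28 and -0.44 and FKS3 was no longer called (0.028). The list then had 3 genes higher and 6 lower, with a median of -0.07. ROT1, an ER protein needed for wall synthesis, fell from 629.6 ± 26.4 to 133.0 ± 30.6 normalised reads (SD, n = 3 each; -2.26, limma adjusted p = 3.49e-07).

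Of 19 genes of the cell wall integrity pathway, which senses wall stress and controls PIR genes, 15 rose and 1 fell, and the median was 1.77. The sensor MTL1 (2.36), the transcription factor RLM1 (2.20) and the transcription factor SWI4 (2.03) led (limma adjusted p from 3.17e-07 to 8.14e-07). RHO1, the GTPase of the pathway, was the lower one (-1.05, adjusted p = 4.04e-06), and its call was lost under the length and GC correction (-0.087), which left 12 higher and 0 lower. The median under that correction was 0.48. With equal library totals 2 were lower.

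Of 16 genes of O-mannosylation and proteolytic trimming, not all of which are known here to act on PIR proteins, 12 rose and 3 fell, and the median was 0.48. The mannosyltransferases PMT4 (2.00) and PMT2 (1.96) and the protease KEX2 (1.65) led, and the mannosyltransferase MNT2 was lowest (-1.57; limma adjusted p from 3.9e-07 to 1.59e-06). With equal library totals 7 were higher and 4 lower (median -0.09). That scaling shifted the median gene by -0.56, so the sign of this list median is not relative to the median gene. Under the length and GC correction 5 were higher and 7 lower (median -0.07). Quantile normalisation gave 8 higher and 5 lower.

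Of 19 genes transcribed from late mitosis to G1 or regulating that wave, 14 rose and 2 fell, and the median was 1.29. The number lower was 5 with equal library totals and 4 without assembly library 3. EGT2, a GPI protein of cell separation (2.18), DSE2, a daughter-specific secreted protein (2.16), and SCW11 led, and RME1, a transcription factor, was lowest (-1.93; limma adjusted p from 3.17e-07 to 4.03e-07). Under the length and GC correction DSE2, at 978 nt of the same coding length as PIR3, was at 2.69, SCW11 at 1.70 and EGT2 at 0.58. The list then had 14 higher and 3 lower, with a median of 0.56. These lists share EGT2, SCW11, CTS1 and DSE4, and their median coding lengths ran from 1181 nt in the SUN family to 2247 nt in O-mannosylation.

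**Figure D5:**
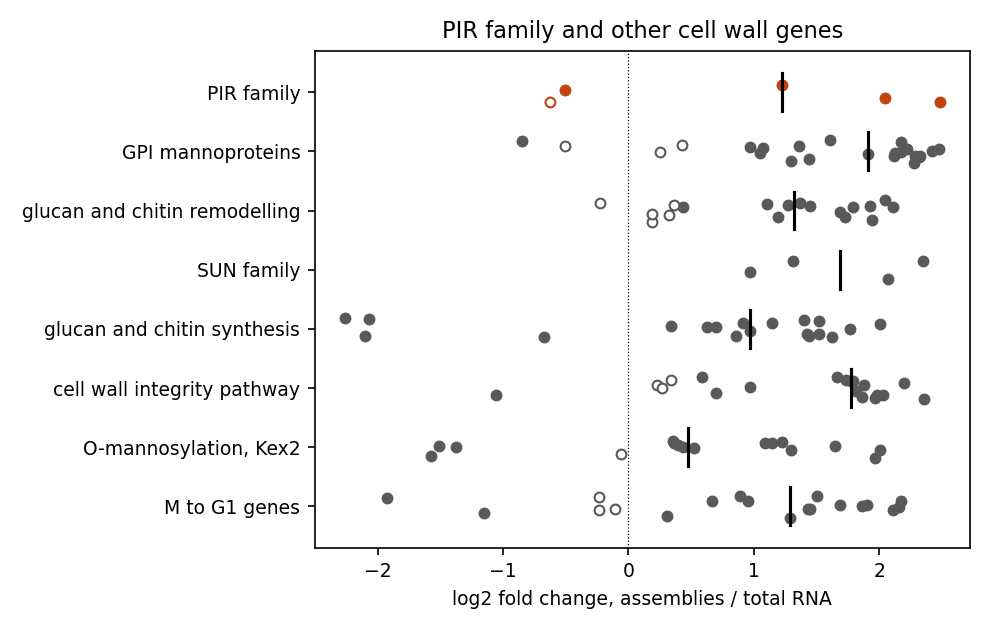
Log2 fold change of assemblies against total RNA for the PIR family (orange) and 7 lists of cell wall and cell cycle genes (grey), 1 point a gene, filled where limma's adjusted p was below 0.05, with a black line at each median. The PIR family spans from -0.62 to 2.48 around a median of 1.22, and each other list has its median above 0. Under the length and GC correction the median turned negative for glucan and chitin synthesis (-0.07) and for O-mannosylation (-0.07). With equal library totals, which shifted the median gene by -0.56, the O-mannosylation median was -0.09.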

How the data were processed

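Tools named in the submitters' processing notes are Trimmomatic 0.32, FastQC, Bowtie 0.12.7, DESeq 1.22.1 and HTSeq, and the build is R64. The sources used here do not give the annotation, the strand setting or the treatment of reads with several matches, so antisense or overlapping RNA cannot be separated. Per the file headers, the deposited values are a signal, normalised reads for each open reading frame in each library, and the authors' fold change, which is the ratio of the group means. Divided by what 1 read is worth in its library, every nonzero value (100%) came out whole within 0.01, so reads could be recovered. By identifier, 5916 of 6603 open reading frames matched a RefSeq gene, and 4 lines had no values.

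Groups were compared with limma 3.58.1 (R 4.3.3, trend) on log2(value + 1) of 5670 genes with a mean of at least 10, 3 libraries against 3, 2-sided, with Benjamini-Hochberg adjustment. Fold changes on this scale understate those of weakly expressed genes. Coding lengths and repeats came from RefSeq, read with Python 3.11.15 and Biopython 1.88. Length and GC content were fitted out of each library with natural splines (5 degrees of freedom each). On simulated counts for this comparison, over 5690 genes, the test called 52.5%, 91.8% and 100% of genes changed 1.5, 2 and 4-fold, and 10 unchanged genes. Only 61, 73 and 66 genes were changed at these folds, and every gene had the same dispersion in both groups. In the data 82.2% of genes were called, and chi-square per degree of freedom was 26.5 to 59.8 between assemblies and 1.57 to 12.7 between total RNA libraries. The simulated rates therefore do not carry over to the data. Alternatives were other pseudocounts, filters and scalings, edgeR 4.0.16 and DESeq2 1.42.0 on the recovered reads, and leaving out libraries.

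Members and lists were chosen with earlier results of these data known. Genes are named if they are members, flank a member cluster, are among the 5 nearest to PIR1, or are the 3 called list genes with the largest change in the main direction or the one furthest the other way.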

Additional observations from a re-analysis of the deposited data

How the results depend on the processing

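The members were chosen on this comparison, so their values under other settings are a description and support nothing. Over 19 alternatives the log2 fold changes ran from 1.87 to 2.64 for PIR1, 1.44 to 2.13 for HSP150, 0.66 to 1.83 for PIR3 and -1.14 to -0.11 for CIS3, which was not called at -0.11 under the length and GC correction, without and with a replicate block. PIR5 was called lower at -1.14 with equal library totals, and without 1 library it ranged from -0.87 to -0.50. The number of members lower, 1, was 2 with equal totals, 0 under the length and GC correction (also 0 with the replicate block added, an alternative chosen after seeing the data), and 1 to 2 without 1 library. Of all list genes, 88 were higher and 11 lower, and the number lower was 20 with equal totals, 18 under the length and GC correction and 17 with the block added. Values that reversed under the length and GC correction were FKS1 (-0.28), GSC2 (-0.44), FMP33 (1.01), FAR1 (-0.42) and MCD4 (-0.27), the same with the block. With quantile normalisation FMP33 was 0.33 and FAR1 -0.00078, and FMP33 ranged from -0.33 to 0.041 without 1 library. The cause was not tested. Whether replicate numbers pair the libraries was not resolved: same-numbered deviations correlated at 0.0777, 0.167 and 0.276. Assembly libraries 1 and 3 correlated best with the total RNA library of the same number. Assembly library 2 correlated best with total RNA library 1 (0.220), which closely resembled total RNA library 2. The replicate block called 2375 genes higher and 2350 lower. On recovered reads edgeR called 2232 and 2471, and DESeq2 2302 and 2281. Depth limits PIR5, with 6 to 19 reads a library.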

Other observations

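Other genes with strongly repetitive coding sequences were described in the same way, at a limit of 15% repeated 12-base words that was chosen after PIR values had been seen, so no test is given. Of 23 such nuclear genes outside the PIR family, 20 were higher in assemblies and 3 lower by limma. By the same test 41.3% of all genes were higher and 40.8% lower. Several of the 23, such as TIR1, TIR4, DAN4 and FLO11, were also counted among the GPI-anchored wall mannoproteins, so the 2 counts are not independent. The 23 genes had a median log2 fold change of 2.11 and a median coding length of 2097 nt. They include SED1, an abundant GPI wall protein of 1017 coding bases that rose from 10766 ± 1442 to 50586 ± 9930 normalised reads (SD, n = 3 each; log2 fold change 2.22, limma adjusted p = 3.92e-07), and the flocculins FLO1, FLO5 and FLO9, whose near-identical sequences could share reads. The 3 lower genes were DDR48, a stress protein with 65.1% repeated words (-1.01), UBI4, which encodes polyubiquitin, with 58.6% (-0.63), and CPP1 with 17.0% (-0.61), so the 2 most repetitive coding sequences of all went against the majority. At limits of 10% and 20% the counts were 35 higher and 6 lower, and 18 higher and 2 lower. With 9-base and 15-base words they were 32 and 7, and 19 and 2. Under the length and GC correction 11 rose and 2 fell, and the median was 0.35, where of 5502 genes 1810 rose and 1979 fell. Over 5502 nuclear genes, which are not independent and share the same 6 libraries, the share of repeated words and the log2 fold change had a Spearman's rho of 0.332, and 0.128 with coding length held constant.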
